A study of Homo sapiens with 7 samples.

Results

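The last interval of a hypoxia time course in a neuroblastoma line was examined by setting the 5-hydroxymethylcytosine (5-hmC) peaks of cells kept for 48 h in 1% oxygen against those of cells kept there for 72 h. The members were all peaks of these lists on chromosomes 1 to 22, which came to 331251 at 48 h and 346595 at 72 h, or 677846 of the 1873636 peaks that the 6 lists of the series hold. A peak was said to have a counterpart when it overlapped a peak of the other list by at least 1 bp. A peak of the 72 h list without one is termed gained, and a peak of the 48 h list without one is termed lost. These words describe presence in a list and not a measured amount of 5-hmC.

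5-hmC arises when TET enzymes, which need molecular oxygen, iron and 2-oxoglutarate, oxidise 5-methylcytosine. It can be a step on the way to unmodified cytosine or persist as a mark of its own, and it is known to be frequent in the bodies of transcribed genes and at enhancers. A peak here is a stretch of genome where captured, 5-hmC-bearing fragments were piled up. Its width is not the width of a modified site, since a few modified bases close together give 1 peak and a dense run of them gives a broader one.

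The cells were SK-N-BE(2), labelled wild type, an established line with an amplified MYCN gene. They grew in RPMI with serum at 21% oxygen for the 0 h sample, and at 1% oxygen for the 6, 12, 24, 48 and 72 h samples. Each time is 1 library, so nothing below has a replicate error or a test, and every difference is between 2 libraries. The 48 and 72 h cells share the low oxygen and differ in its duration, for which no normoxic sample of the same age was used. The lists give positions alone, so depth is unknown, and no list states how sensitively it was called.

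The 72 h list was longer and its peaks were broader. It held 15344 more autosomal peaks than the 48 h list, a rise of 4.63%, and covered 189 Mb against 176 Mb, a rise of 7.45%. The step before, from 24 to 48 h, had added more peaks (24079, 7.84%) and a similar length (8.17%). The median peak spanned 410 bp in the 48 h list and 423 bp in the 72 h list, and the 95th percentiles were 1222 and 1244 bp. Peaks of at least 1000 bp numbered 27536 at 48 h and 30350 at 72 h. The extremes hardly differed, with a widest peak of 12345 bp (chromosome 7, 1888764 to 1901108, hg19) at 48 h and of 12516 bp (chromosome 19, 6232741 to 6245256) at 72 h.

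The narrow end of the lists differed as well. The narrowest autosomal peak of the 48 h list spanned 232 bp and that of the 72 h list 242 bp, and no peak of the 72 h list could therefore be as narrow as the narrowest of the 48 h list. With every list taken from 242 bp up, the rise from 48 to 72 h was 11.1% in number and 10.3% in length, and that from 24 to 48 h was 8.03% and 8.27%. The cut at 242 bp trims the 48 h list and not the 72 h list, so a larger rise over the last step follows from its construction. Peaks of at least 500 bp rose by 9.70% in number over the last step and by 8.71% from 24 to 48 h. Since the 72 h peaks were the broader ones, a fixed cut can also count more of them. Which of the last 2 steps added more peaks thus depended on the width cut.

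The first comparison asked how many peaks of each list recurred in the other. Most did. Of the 48 h peaks, 293549 had a counterpart at 72 h and 37702 were lost, or 11.4% (95% Clopper-Pearson interval 11.3 to 11.5%). Of the 72 h peaks, 290557 had a counterpart at 48 h and 56038 were gained, or 16.2% (16.05 to 16.3%). These intervals cover counting error only. There were 1.49 gained peaks for each lost one, against 1.79 from 24 to 48 h and 0.990 from 6 to 12 h.

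Against the 4 earlier steps the turnover was moderate. The lost share ranged from 10.9% (24 to 48 h) to 14.7% (6 to 12 h) over those steps, and the gained share from 14.5% (6 to 12 h) to 18.1% (24 to 48 h), so both values of the last step fall inside the earlier ranges. From 6 to 12 h, where list length hardly changed (0.502% more peaks), 14.7% of the peaks were still lost and 14.5% gained. Neighbouring libraries thus differed by shares of this order at all 5 steps.

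**Figure D1:**
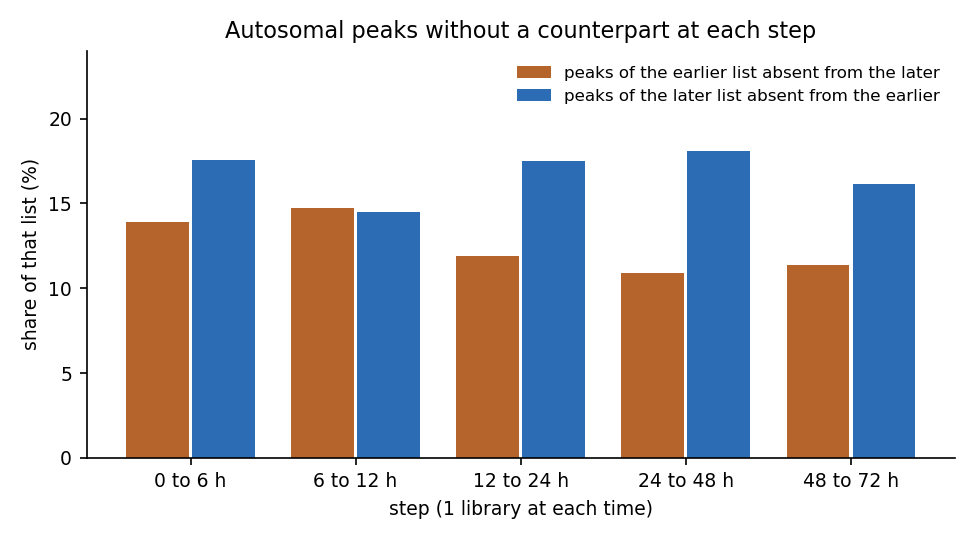
Share of autosomal peaks without a counterpart (vertical axis, percent of the list named) at each of the 5 steps (horizontal axis), with 1 library at each time. At the last step 11.4% of 48 h peaks and 16.2% of 72 h peaks lacked a counterpart, both within the range of the earlier steps.

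Whether a peak recurred went with its width. Lost peaks had a median width of 272 bp and gained ones of 288 bp, against 436 and 461 bp for the 48 h and 72 h peaks that had a counterpart. Among peaks under 300 bp, 34.5% of the 48 h peaks were lost and 48.4% of the 72 h peaks were gained. Among those of 500 bp to under 750 bp, 1.22% were lost and 2.73% gained. At 1000 bp and above 1 peak of 27536 was lost and 11 of 30350 were gained, and from 2000 bp up 0 of 4018 and 0 of 4428. In every class under 2000 bp the gained share was the higher one.

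**Figure D2:**
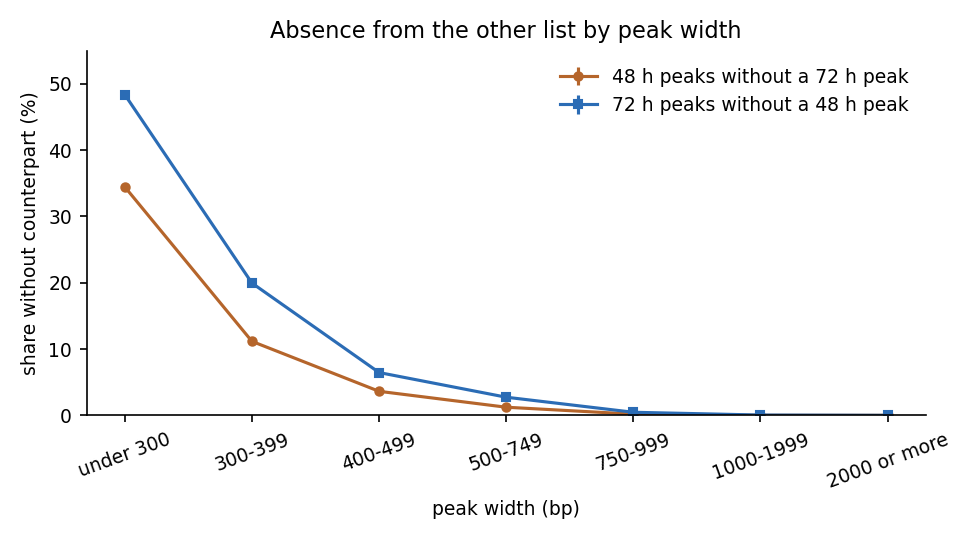
Share of peaks without a counterpart (vertical axis, percent, with 95% Clopper-Pearson intervals mostly smaller than the symbols) by peak width in bp (horizontal axis), for the 48 h and the 72 h list. The share falls from 34.5% and 48.4% under 300 bp to 0 at 2000 bp and above.

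Peaks present on each side changed width in small amounts. In 266327 pairs each peak overlapped exactly 1 peak of the other list. The 72 h peak was the broader one in 59.2% of these pairs and the narrower in 40.3%, with a median change of 18.0 bp, and the middle 50% of changes ran from -35.0 to 74.0 bp. The growth was spread over each end of the peak, with a median of 8 bp on the left and 8 bp on the right. At least a doubling of width was seen in 3404 pairs, and a shrinkage to at most 0.5 of the 48 h width in 1312. Counted from the narrowest width of its own list, the 72 h peak was broader in 53.9% of pairs and the median change was 8 bp. Over the 4 earlier steps, in order, the later peak was broader in 59.5%, 45.3%, 57.5% and 57.0% of pairs. Counted from the narrowest width, these shares were 55.1%, 47.4%, 56.3% and 57.5%. Broadening was thus not particular to the last step.

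The median broadening in bp was similar at all widths, and its proportion of the width therefore fell with width. By the mean width of a pair, the median change was 5.02% of that mean under 300 bp, 5.67% from 300 to under 400 bp, 3.13% from 500 to under 750 bp and 0.537% from 2000 bp up. The share of pairs broader at 72 h fell over the same classes from 61.4% to 55%. In bp the median change lay between 13 and 20 in all 7 width classes, so the fall of the percentages follows from the division by width. The narrowest widths of the 2 lists themselves differ by 10 bp.

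Peaks also fused and split. A 72 h peak overlapped several 48 h peaks in 10317 cases, up to 5 of them, and a 48 h peak overlapped several 72 h peaks in 7575 cases, up to 4. In length, 152 Mb were covered in both lists. Gained peaks contributed 17.4 Mb, and 20.4 Mb were covered at 72 h next to or between parts of a recurring peak. Lost peaks took away 11.05 Mb, and 13.7 Mb of recurring 48 h peaks were no longer covered. As deposited, more of the length added at 72 h thus lay in extensions of recurring peaks than in separate ones. From 24 to 48 h extensions came to 18.6 Mb and gained peaks to 18.1 Mb. The narrowest width differs by 10 bp between the 48 and 72 h lists and by -1 bp between those of 24 and 48 h. How much of the extension goes with this was not tested.

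Named by width, the 5 broadest gained peaks measured 1055 to 1356 bp. The broadest lay on chromosome 16 from 1010652 to 1012007 (1356 bp), in none of the earlier lists and 77 bp from the nearest 48 h peak. The second, on chromosome 7 from 36215352 to 36216581 (1230 bp), had been present at 0 and 6 h. The third, on chromosome 7 from 27552431 to 27553581 (1151 bp), was in no earlier list. The fourth, on chromosome 1 from 8688658 to 8689716 (1059 bp), had been in the 0 and 6 h lists. The fifth, on chromosome 8 from 22241437 to 22242491 (1055 bp), had been in all 4 lists before 48 h. So 3 of the 5 broadest gained peaks were returns.

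All 5 of the broadest lost peaks had a record. The broadest, of 1023 bp, lay on chromosome 17 (27451362 to 27452384) and had been seen at 6 and 24 h. The second, of 976 bp on chromosome 7 (129781986 to 129782961), had been in every list from 0 to 48 h, and the nearest 72 h peak stood 118 bp away. The third, of 933 bp on chromosome 3 (10397219 to 10398151), had also been in all of them, with a 72 h peak at 477 bp. The others were a peak of 932 bp on chromosome 18 (5052006 to 5052937), seen at 6, 12 and 24 h, and one of 924 bp on chromosome 1 (110895432 to 110896355), seen at 0, 6 and 24 h.

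Among paired peaks, the largest broadening was on chromosome 3, where a peak of 238 bp at 48 h (28947484 to 28947721) faced one of 1467 bp at 72 h (28946501 to 28947967). Peaks there had measured at most 437, 706, 332 and 300 bp at 0, 6, 12 and 24 h. On chromosome 1 a 48 h peak of 239 bp (205038734 to 205038972) faced one of 1427 bp (205037793 to 205039219), at a site without a peak at 0 and 6 h. The other 3 were a peak of chromosome 14 that went from 731 to 1915 bp, one of chromosome 5 from 2936 to 4115 bp and one of chromosome 16 from 609 to 1735 bp. The chromosome 14 site had held a peak of 1465 bp at 6 h.

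The largest narrowing was on chromosome 14, from 1856 bp at 48 h (106202183 to 106204038) to 795 bp at 72 h (106203122 to 106203916). At the earlier times the broadest peak there had measured between 1045 and 1499 bp. The next was on chromosome 22, from 2211 bp (30117121 to 30119331) to 1194 bp, close to the 1191 bp of 0 h and the 1172 bp of 24 h. Peaks on chromosomes 4, 5 and 1 went from 1585 to 583 bp, from 1560 to 580 bp and from 1412 to 459 bp. The 72 h width of each of these last 3 was below that of every earlier list.

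The second question was whether gained peaks were first seen at 72 h or had been in the lists before. Of the 56038 gained peaks, 28882 overlapped no peak of the 0, 6, 12 or 24 h lists, or 51.5% (51.1 to 52.0%). The remaining 27156 were returns, present earlier and absent at 48 h. By number of earlier lists, 12251 gained peaks had been in 1, 7237 in 2, 4712 in 3 and 2956 in all 4. Median width rose with that number, from 278 bp for first-seen peaks to 325 bp for those of all 4 earlier lists. Of gained peaks of at least 500 bp, 24.6% were first seen.

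Of the earlier lists, that of 24 h held the most gained peaks, 14873 (26.5%), followed by those of 6 h with 13113 (23.4%), 12 h with 12604 (22.5%) and 0 h with 12095 (21.6%). A total of 4138 had been at 24 h alone of the 4 earlier times, and 2568 at 0 h alone. At the step before, 51.2% of peaks gained from 24 to 48 h had been in 1 of the lists of 0, 6 and 12 h. Counted likewise over the 3 lists of 6, 12 and 24 h, 43.9% of the peaks gained at 72 h had been seen before.

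Lost peaks had a longer record than gained ones. Of the 37702 lost peaks, 13843 (36.7%) had been in the 48 h list alone, and 4474 (11.9%) in every list from 0 to 48 h. Sites held by all 5 lists up to 48 h and missing at 72 h (4474) thus outnumbered those held at 0 to 24 h, missing at 48 h and back at 72 h (2956). Recurring peaks were mostly old, and 69.7% of the 72 h peaks with a 48 h counterpart had been in all 4 earlier lists.

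**Figure D3:**
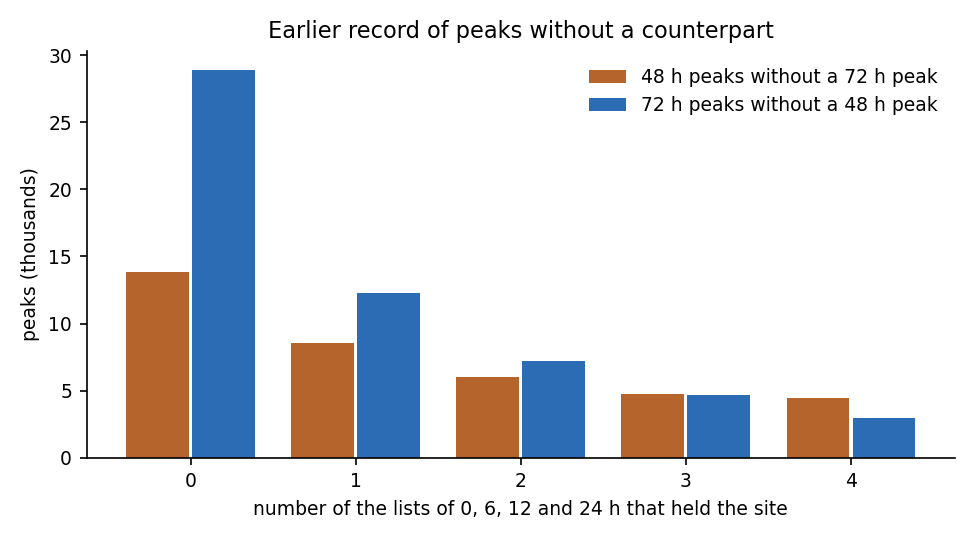
Number of gained and lost peaks (vertical axis, in units of 1000) by how many of the lists of 0, 6, 12 and 24 h held a peak at the site (horizontal axis). First-seen peaks numbered 28882 among the gained and 13843 among the lost, while lost peaks were the more numerous at 3 and 4 earlier lists.

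The fate of the peaks that had appeared at 48 h was followed into the 72 h list. Of 59853 peaks present at 48 h and absent at 24 h, 62.6% were found again at 72 h (62.3 to 63.0%). The share for newly appeared peaks one interval later had been 48.2% for those of 6 h, 51.9% for those of 12 h and 60.5% for those of 24 h. Peaks that had been in the 24 h list were found again in 94.3%. Peaks that 48 h was the first list to hold recurred in 52.6% (15339 of 29182), and newly appeared 48 h peaks of at least 500 bp recurred in 87.7%. The 72 h list, in which these were sought, was also the longest of the 6.

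Return after absence was less frequent. Of 33490 peaks of the 24 h list that were missing at 48 h, 15370 were back at 72 h, or 45.9% (45.4 to 46.4%). The corresponding share was 42.1% for peaks missing at 6 h, 49.9% for those missing at 12 h and 52.8% for those missing at 24 h. Among the 796 such 24 h peaks of at least 500 bp, 70.2% were back at 72 h, a share between 68.7% and 73.2% in the earlier intervals.

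The next question was where in the genome the lists differed. All 22 autosomes held more peaks at 72 h, with ratios from 1.02 on chromosomes 17, 19, 20 and 22 to 1.07 on chromosomes 4, 6 and 13. Covered length was longer on all 22, with ratios from 1.04 on chromosome 17 to 1.11 on chromosome 13. Chromosome 18 had the highest turnover, with 17.1% of its 48 h peaks lost and 20.04% of its 72 h peaks gained. It was also the autosome with the fewest peaks per Mb at 48 h (61.4, against 100.03 on the next, chromosome 3) and the narrowest (median 366 bp). Lost peaks were fewest on chromosome 2 (10.5%) and gained ones on chromosome 17 (13.5%).

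Bins of 1 Mb were then sorted into deciles by their mean number of peaks in the 4 earlier lists, which takes no part in the step from 48 to 72 h. The 24 h list does enter this mean, so that the ratio from 24 to 48 h in the sparsest bins is in part raised by the sorting. From 48 to 72 h the ratio of peak number was 1.02 in the sparsest decile, 1.08 in the third, 1.07 in the fifth and 1.02 in the densest. From 24 to 48 h it had been 1.24, 1.16, 1.13 and 1.03 in the same deciles. By covered length the ratio from 48 to 72 h was 1.06 in the sparsest and 1.05 in the densest decile. The turnover there stayed the highest of all deciles, with 25.1% of 48 h peaks lost and 26.6% of 72 h peaks gained, against 9.46% and 12.8% in the densest. Median width at 72 h was 352 bp in the sparsest and 494 bp in the densest decile.

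This pattern changed when the narrowest peaks were left out. With every list from 242 bp up, the ratio from 48 to 72 h was 1.14 in the sparsest decile, 1.16 in the third and 1.07 in the densest, and from 24 to 48 h it was 1.25, 1.17 and 1.03. The cut trims the 48 h list and not the 72 h list, so a higher ratio over the last step follows from its construction. Median width at 48 h was 333 bp in the sparsest and 482 bp in the densest decile, so the cut bears more on the sparsest. The sparsest decile then no longer stood with the densest, which is thus in part built in. It still lay below its own value of the step before, as it did with peaks of at least 500 bp (1.13 against 1.26). With peaks of at least 1000 bp the ratio of the last step was 1.06 in both the sparsest and the densest decile. At 48 h the sparsest decile held 2578 peaks of all widths and the densest 74876, so the ratio of the sparsest rests on far fewer peaks.

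**Figure D4:**
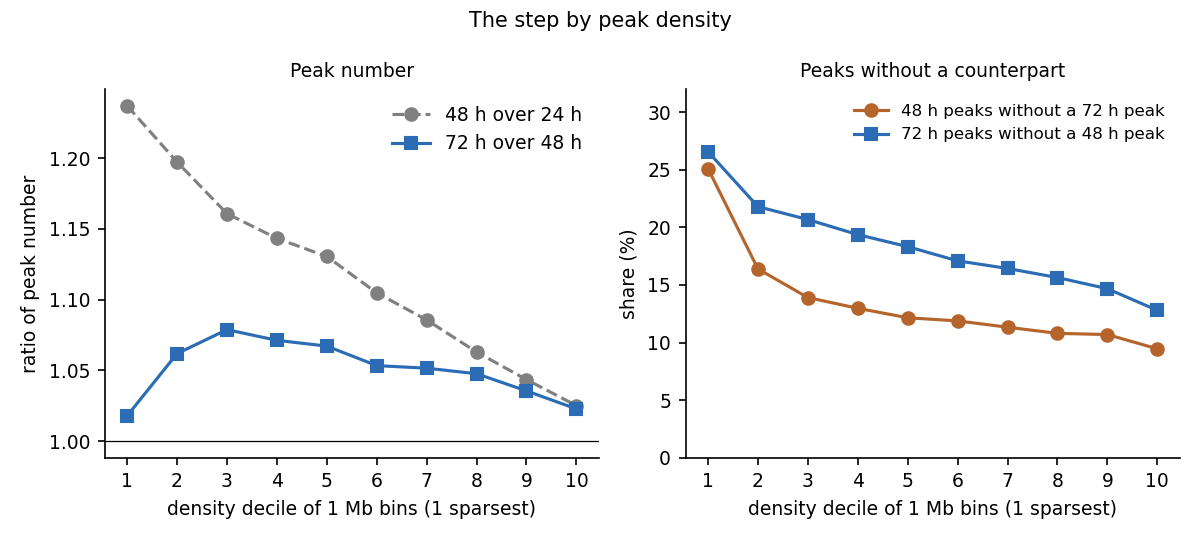
Left, ratio of peak number (vertical axis) from 24 to 48 h and from 48 to 72 h by density decile of 1 Mb bins (horizontal axis, 1 the sparsest). Right, share of 48 h peaks lost and of 72 h peaks gained (vertical axis, percent) in the same deciles. The 48 to 72 h ratio lies between 1.02 and 1.08 in every decile, and turnover falls from the sparsest to the densest.

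Gained peaks lay farther from the 48 h peaks than those lay from each other. The median distance from a gained peak to the nearest 48 h peak was 1476 bp, and 40.1% lay within 1000 bp. First-seen peaks lay farther off (median 1891 bp) than returns (1132 bp). Lost peaks stood 1356 bp from the nearest 72 h peak. Within the 48 h list itself the nearest neighbour was at 999 bp in the median. More than 10 kb from the other list lay 8.88% of gained and 8.51% of lost peaks, against 5.68% for neighbours within the 48 h list.

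Wide gaps of each list were compared with the other list. The 48 h list had 1802 gaps between 100 kb and 1 Mb, which add up to 472 Mb. In them 1833 peaks of the 72 h list began, or 3.88 per Mb. In the 1724 such gaps of the 72 h list (462 Mb), 1562 peaks of the 48 h list began, or 3.38 per Mb. A peak that began in a gap and reached into the peak that closes it was counted too, although it has a counterpart. These counts thus cannot be set against the 1.49 gained for each lost peak over the whole lists, which counts only peaks without a counterpart. In no gap did more than 7 peaks begin, in either direction.

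By a rule of size, a 1 Mb bin was called when its number of peaks differed by at least 10 and its ratio, relative to the totals and with 0.5 added to both numbers, was at least 1.5 or at most the inverse. Of 2694 bins with a peak at either time, 0 were called higher at 72 h (0%) and 1 lower (0.0371%). From 24 to 48 h, 10 of 2692 bins had been called higher. Among 2431 bins that averaged 20 or more peaks, the ratio ran from 0.896 at the 5th to 1.14 at the 95th percentile. The number of peaks rose in 1863 and fell in 491 of these bins. The corresponding spread from 6 to 12 h was 0.897 to 1.11. With peaks of at least 500 bp alone, 13 of 2617 bins were called higher. The earlier steps were not counted with this cut.

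The bin called lower was chromosome 20 from 23 to 24 Mb. It held 14, 18, 16, 21, 31 and 20 peaks from 0 to 72 h, so that the 72 h number was again near that of 24 h. Of its 31 peaks at 48 h, 10 were lost, 5 of them seen in an earlier list, and 0 were gained. Its covered length went from 8.39 kb at 24 h to 12.6 kb at 48 h and 9.28 kb at 72 h. Lost peaks there had a median width of 282 bp, and the bin was no longer called with every list from 242 bp up, by covered length or in 5 Mb bins.

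Some bins below the rule of size were chosen after their values were seen, by the difference of the square roots of their 2 peak numbers, scaled to the totals, where these averaged 20 or more. The largest such rises were on chromosome 8 from 98 to 99 Mb (121 at 48 h, 161 at 72 h), chromosome 18 from 41 to 42 Mb (57 and 79) and chromosome 4 from 158 to 159 Mb (136 and 169). The first had held 103 to 125 peaks up to 24 h, and 24 of its 51 gained peaks had been in an earlier list. The bin on chromosome 18 rose at every time, from 39 peaks at 0 h through 40, 47 and 53. By the same measure the largest falls next to that of chromosome 20 were on chromosome 15 from 94 to 95 Mb (72 and 57) and on chromosome 9 from 110 to 111 Mb (113 and 95). In the first of these, 14 of 18 lost peaks were in an earlier list.

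In 250 kb bins, covered length was compared where the 2 lists averaged at least 8 kb. It was longer at 72 h in 5970 of 7078 bins (84.3%). Relative to the totals, 0 bins stood 1.5 times higher (0%) and 1 bin at or below the inverse (0.0141%). This was chromosome 3 from 15.25 to 15.5 Mb, with 9.48, 9.83, 10.8, 10.4, 12.2 and 8.61 kb from 0 to 72 h. Among 4749 runs of 3 such bins, the highest ratio was that of chromosome 4 from 101.25 to 102 Mb, at 1.23 (30.3 kb at 48 h, 40.1 kb at 72 h). The lowest was that of chromosome 3 from 10 to 10.75 Mb, at 0.809 (36.0 and 31.3 kb).

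The last question was whether stretches that had lost 5-hmC coverage by 48 h recovered at 72 h. In bp many did. Of 5646 bins of 250 kb with at least 8 kb at 0 h, 333 were shorter at 48 h than at 0 h, and 213 of these were back at or above their 0 h length at 72 h, or 63.96% (58.6 to 69.1%). Of the 5313 others, 42 were below 0 h at 72 h. The 333 bins were selected on the 48 h list, so a rise at 72 h is in part built in. The 72 h list also covered 7.45% more length in all, and the interval covers counting error only. In all, 162 bins (2.87%) were shorter at 72 h than at 0 h. The number had been 1112 at 6 h, 1526 at 12 h and 441 at 24 h, so that it had been falling since 12 h, while the lists grew.

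Relative to the growth of the lists, recovery was not general. In 206 of the 5646 bins the share of the list's covered length at 48 h was at most 0.8 of that at 0 h. Their median share relative to 0 h was 0.931, 0.918, 0.885, 0.772 and 0.769 from 6 to 72 h. At 72 h the share was above that of 48 h in 116 of them (56.3%, 49.2 to 63.2%), at or below 0.8 in 133 and back at 1 or more in 1. Their summed length at 72 h was 1.08 times that at 48 h, against 1.07 for all autosomes. These bins were selected on the 48 h list, so that a rise at 72 h is in part built in.

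Bins low at earlier times were more often higher at the next one. The 76 bins at or below 0.8 at 6 h were higher at 12 h in 85.5%. The 67 bins low at 12 h were higher at 24 h in 92.5%, and the 30 bins low at 24 h were higher at 48 h in 80.0%. Each set was selected on its own list, so a rise at the next time is in part built in. The sets were also rarer, at 1.35%, 1.19% and 0.531% of eligible bins at 6, 12 and 24 h, against 3.65% at 48 h. For bins low at 24 h, whose selection does not use the 48 or 72 h list, the median share was 0.869 at 48 h and 0.912 at 72 h, and 19 of 30 were higher at 72 h than at 48 h. In the 348 bins with a share of at least 1.25 at 48 h, the median was 1.32 at 48 h and 1.30 at 72 h. Of these, 206 (59.2%) were lower at 72 h than at 48 h and 248 were still at or above 1.25. They too were selected on the 48 h list, so that a fall at 72 h is in part built in.

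The low bins were not evenly placed. Chromosome 11 held 40 of the 206, of which 28 lay in its first 50 Mb, where 74 bins had been eligible (37.8%, against 3.65% in all). These first 50 Mb were looked at because earlier results of these data had singled it out. Its 28 low bins had a median share of 0.748 at 48 h and 0.739 at 72 h, and 16 were higher at 72 h. They had been at 0.842 at 6 h. Chromosomes 17, 19 and 22 held 0 low bins, of 215, 120 and 114.

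Adjacent low bins formed 26 runs, of which 17 had a higher share at 72 h than at 48 h. The change in covered length ran from -2.23% on chromosome 7 from 47.5 to 48 Mb to 25.9% on chromosome 3 from 29.25 to 29.75 Mb. The stretch on chromosome 3 covered 57.7, 65.7, 60.3, 57.4, 52.8 and 66.5 kb from 0 to 72 h, so that it passed its 0 h length. It gained 37 peaks and lost 11, and 29 of the gained ones had been in an earlier list. A stretch of chromosome 9 from 16 to 16.75 Mb went from 79.1 to 94.9 kb (86.6 kb at 0 h), with 36 gained and 10 lost peaks, and 90 of its 140 paired peaks were broader at 72 h.

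Of single low bins, the most length was regained on chromosome 3 from 29.5 to 29.75 Mb (23.4 kb at 48 h, 32.5 kb at 72 h, 27.0 kb at 0 h). Bins on chromosome 13 from 102.75 to 103 Mb, chromosome 12 from 94 to 94.25 Mb, chromosome 21 from 46.75 to 47 Mb and chromosome 4 from 95.75 to 96 Mb regained 8.14, 8.06, 7.60 and 7.44 kb. All 5 were above their 0 h length at 72 h. Their shares relative to 0 h were still below 1, at 0.798 to 0.955. Other low bins fell further. The bin of chromosome 10 from 48.5 to 48.75 Mb went from 21.5 to 17.4 kb (22.4 kb at 0 h) and its share from 0.788 to 0.594. That of chromosome 4 from 41.75 to 42 Mb went from 40.6 to 37.8 kb and its share from 0.799 to 0.692. The next 3, on chromosomes 20, 11 and 14, changed by -2.11 to -1.32 kb.

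One of the stretches that recovered in part was chromosome 2 from 16 to 16.75 Mb, in the short arm that also carries MYCN, a transcription factor gene of the MYC family. The hg19 positions of genes were not used here. The stretch was known from earlier results of these data, and of the 26 runs it had the lowest share at 48 h. It covered 106 kb at 0 h, 98.8 kb at 6 h, 95.04 kb at 12 h, 94.3 kb at 24 h, 72.7 kb at 48 h and 86.8 kb at 72 h. The 48 h value was the lowest and the 72 h value the second lowest. The rise of 19.3% from 48 to 72 h returned 42.7% of the length missing at 48 h. Its ratio over the step, relative to the totals, was 1.11, the 271st highest of the 4749 runs. As a share of the list relative to 0 h, it went from 0.793 at 24 h to 0.566 at 48 h and 0.628 at 72 h.

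**Figure D5:**
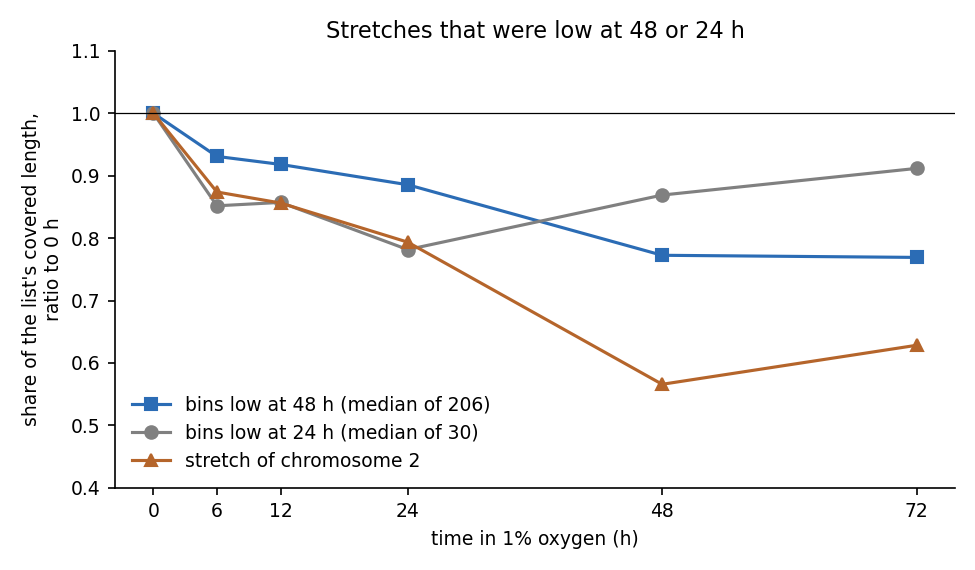
Share of a list's autosomal covered length relative to 0 h (vertical axis) against time (horizontal axis, h, where 0 h is 21% oxygen), as the median of the 206 bins of 250 kb low at 48 h, the median of the 30 bins low at 24 h, and the stretch of chromosome 2 from 16 to 16.75 Mb. The first stays at 0.772 and 0.769 over the last step, and the stretch goes from 0.566 to 0.628.

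Its recovery was made of returning peaks and of broader ones. The stretch held 110 peaks at 48 h and 123 at 72 h (145 at 0 h), with 5 lost and 22 gained. Of the 22 gained peaks, 18 overlapped a 0 h peak and 19 a peak of any earlier list. Of 95 paired peaks, 78 were broader at 72 h and 16 narrower, with a median change of 45.0 bp. Since the stretch was picked for its low coverage at 48 h against 0 h, returns to 0 h sites and broader pairs are in part built in, and these counts are a description only. Peaks of at least 1000 bp numbered 33 at 0 h, 18 at 48 h and 27 at 72 h. Gained peaks added 7.91 kb and lost ones took 1.51 kb. With every list from 242 bp up, a cut that trims the 48 h list and not the 72 h list, the rise in covered length was 21.7%.

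Within the stretch the recovery was broad and incomplete. Of its 15 windows of 50 kb, 12 were longer at 72 h than at 48 h. The 11 windows below their 0 h length at 48 h were those from 16.05 to 16.6 Mb, and all 11 were longer at 72 h and still below 0 h. At 72 h they stood at 55.5 to 85.0% of 0 h, against 7.98 to 76.2% at 48 h. The window from 16.3 to 16.35 Mb went from 0.166 kb to 1.15 kb (2.08 kb at 0 h), and that from 16.5 to 16.55 Mb from 4.87 to 7.40 kb (9.26 kb at 0 h). The 3 windows that shortened, from 16.6 to 16.75 Mb, had not been below 0 h at 48 h.

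The broadest peak of the stretch did not regain its form. At 0 h it spanned 6431 bp, from 16120622 to 16127052. Over this span lay 1 peak at 6 h, 3 peaks at 12 and 24 h, and 4 peaks at 48 and 72 h. The length covered was 6376, 6171, 5747, 4709 and 5318 bp from 6 to 72 h. The broadest piece was 2858 bp long at 48 h and 2642 bp at 72 h, so that coverage rose at 72 h while the broadest piece was shorter.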

How the data were processed

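DNA of SK-N-BE(2) cells was sheared to 300 bp, and fragments with 5-hmC were tagged with an azide glucose, biotinylated, captured and sequenced, per the labels' protocols. The authors deposited 1 list per sample with 3 columns (chromosome, start, end), and these positions carry no height, score or p. Per the submitters' processing notes, the tools were BWA 0.7.17, MACS2 and HTSeq and the build hg19, with no role stated. Caller settings were not given in the sources used here. The input sample was not analysed here.

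Only chromosomes 1 to 22 were used, and starts are printed 1-based. Overlap was 1 bp or more. Intervals are 95% Clopper-Pearson. Peaks were assigned to bins by midpoint, and covered length by position. Members, bins and stretches were chosen with earlier results of these data known. Named peaks and pairs are the 5 widest or most changed in each direction, and named bins those past the rule of size plus a few chosen after their values were seen. No gene positions or sequences of hg19 were at hand, so the gene lists drawn up were not used. Overlap and bin counts were checked on simulated lists of 72475 peaks, where 9 of 9 quantities came back exactly. The work used pandas 2.3.3 and NumPy 2.4.6 in Python 3.11.15, with intervals from SciPy 1.17.1 and plots from Matplotlib 3.10.9.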

Additional observations from a re-analysis of the deposited data

How the results depend on the processing

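Of 43 alternatives, 12 kept their value (a share within its interval, a count within 1.5 times). Gained, lost and first-seen shares, in this order, were 22.2%, 18.6% and 48.5% where an overlap had to span 0.5 of both peaks, 1.60%, 0.710% and 24.6% for peaks of at least 500 bp, 14.1%, 13.1% and 49.4% with the same number of peaks per list, and 15.6%, 11.01% and 53.1% with peaks closer than 300 bp merged. By midpoint, gained and lost shares were 18.2% and 12.8%. With every list from 242 bp up, an alternative added after seeing the data, the 3 shares were 18.9%, 9.29% and 55.4%. That choice trims the 48 h list alone of these 2, so a higher gained and a lower lost share follow from its construction. The gained share exceeded the lost one in all of these.

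Pairs broader at 72 h made up 53.9% less the narrowest width, 63.2% of those changed by at least 50 bp, 59.0% with overlap of 0.5 of both and 57.8% from 242 bp up. Bins called higher numbered 13 of 2617 with peaks of at least 500 bp and 1 of 2694 from 242 bp up. Bins called lower numbered 0 in 5 Mb bins, by covered length, with peaks of at least 500 bp and from 242 bp up, and 2 with the same number of peaks. Low bins with a higher share at 72 h made up 63.3% when selected at 24 h, 41.2% of 17 bins of 1 Mb, and 70.9% by peak number. Other causes of these changes were not tested. No paired analysis was possible because each time has 1 library. What depth does to list length and width has no value here, since the lists give none.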
